A study of Mus musculus with 47 samples.

Results

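The levels of 7 homing receptor genes were followed through blood formation: Ccr7, S1pr1, Cxcr4, Ccr9, Ccr2, Cx3cr1 and Cxcr2. Every probe set annotated to 1 of these symbols alone was taken, which gave 15 of the 45101 probe sets on the array and 7 of the 18194 named genes. Ccr9 had 5 probe sets, Ccr2 had 4, Cx3cr1 had 2, and the other members had 1 each. Levels are the log2 of the deposited intensity, on which 1 unit is a 2-fold difference, and they are compared between groups for the same probe set but not between probe sets.

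The study measured gene expression on 47 Affymetrix arrays, each from 2000 cells purified from the bone marrow of adult C57Bl6 mice. The labels name 17 groups. There were 2 arrays each of LTHSC, STHSC, GM, CLP, ProB, IgM+SP, NKmature and CD4, 3 each of ETP, GMP, MkP, ProE, CFUE and PreCFUE, 4 each of PreB and MkE, and 5 of LMPP. All groups share the strain, the tissue and the lack of any labelled treatment or mutation. The labels do not spell out the group names, and they give no sorting markers, sex, exact age, animals or pools, so p-values measure only the spread between these arrays.

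Homing receptors are G protein-coupled receptors on the surface of blood cells that read gradients of chemokines or, for S1pr1, of the lipid sphingosine 1-phosphate. Cxcr4 holds stem cells, progenitors and developing B cells near Cxcl12-producing stroma of the marrow, and S1pr1 draws lymphocytes out of tissue into blood and lymph. Ccr7 takes lymphocytes into lymph nodes, Ccr9 serves entry into thymus and small intestine, Ccr2 and Cx3cr1 serve monocytes and natural killer (NK) cells, and Cxcr2 serves neutrophils.

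Cell type markers were read first, because several arrays stood apart from their labels. Arrays of 1 group correlated at 0.928 to 0.997, and 46 of the 47 were most like an array of their own group. Array medians ran from 13.8 to 16.9 in intensity. The mean log2 level of 5 T cell genes was 9.37 and 9.50 on the CD4 arrays and at most 6.16 on all others. The ProB arrays had 5 B cell genes at a mean of 7.20 and 4.80, against 10.18, 10.23, 9.05 and 8.92 on PreB and 9.83 and 9.81 on IgM+SP. They also had 3 plasmacytoid dendritic cell genes (Siglech, Cox6a2 and Pacsin1) at 10.35 and 10.81, above the 6.16 of the highest other array, and 5 NK cell genes at 9.02 on both, against 10.88 and 11.03 on NKmature. The markers thus go against a pure B lineage sample, and these libraries are called "the arrays labelled ProB" here. PreB replicates 3 and 4 had the NK genes at 5.87 and 6.10 and 5 late neutrophil genes at 10.37 and 10.95, against 3.38 and 3.58, and 3.82 and 6.23, on PreB replicates 1 and 2. The late neutrophil genes were also high on IgM+SP (11.04 and 10.34), NKmature (10.76 and 10.86), ProB replicate 2 (10.32) and LMPP replicates 4 and 5 (8.60 and 8.48). Transcripts linked to sex, Xist and Eif2s3y, put PreB replicates 1 and 2 in another class than replicates 3 and 4, and the groups shared no class in the comparisons of CD4 with ETP, IgM+SP and NKmature, of CLP with ProB and NKmature, of MkE with LTHSC and ProE, and of GMP with GM. In those comparisons the group and whatever goes with the class, a batch included, cannot be told apart. A fit with the class as a block does not part them either. It takes its class differences from PreB, LMPP and ETP, the groups whose arrays differ in class. In addition, fewer cells of a type and less RNA per cell cannot be told apart in samples of many cells.

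The 250 bases before the start of Ccr9 and of Cxcr4 are shown because these were the members whose levels differed most between arrays of 1 group. They come from the RefSeq promoter table of build GRCm38.p6, in which 5 of the 7 members matched. The Ccr9 window is chr9:123766961-123767210 on the + strand and the Cxcr4 window is chr1:128592300-128592549 on the - strand, both upstream of the annotated gene and written 5' to 3' along it. Capitals mark matches on either strand to CANNTG (the E-box), GGGCGG (the GC box) and TATAAA (the TATA box).
Ccr9: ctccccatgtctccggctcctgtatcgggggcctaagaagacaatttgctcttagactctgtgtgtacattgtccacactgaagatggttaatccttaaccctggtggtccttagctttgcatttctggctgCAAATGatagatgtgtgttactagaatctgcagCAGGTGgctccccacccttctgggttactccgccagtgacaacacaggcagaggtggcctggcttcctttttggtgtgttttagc
Cxcr4: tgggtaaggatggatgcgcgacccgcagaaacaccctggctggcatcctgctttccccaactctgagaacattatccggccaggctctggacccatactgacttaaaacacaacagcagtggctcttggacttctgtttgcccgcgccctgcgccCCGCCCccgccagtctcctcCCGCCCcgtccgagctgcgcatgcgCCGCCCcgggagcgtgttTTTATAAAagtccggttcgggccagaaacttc
The Ccr9 window held 2 E-boxes and neither of the other motifs, with 3 CG pairs and 50.4% GC. The Cxcr4 window held 3 GC boxes, 2 overlapping TATA matches on opposite strands and no E-box, with 19 CG pairs and 61.2% GC. Of 32851 windows of the same length, 66.2% held an E-box, 32.7% a GC box and 12.4% a TATA box. Of those windows, 29% had fewer CG pairs than that of Ccr9 and 80.3% fewer than that of Cxcr4. These matches are descriptions of the letters, not of binding.

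All 7 genes and 13 of the 15 probe sets had a mean above 3.889, the median of the whole table, in some group and were tested. Probe sets 1442758_at (Ccr9) and 1450019_at (Cx3cr1) stayed below it in all groups. By limma's moderated F-test all 7 genes differed among the 17 groups, as did 90.3% of all genes tested, so that count says little about homing receptors in particular.

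**Figure D1:**
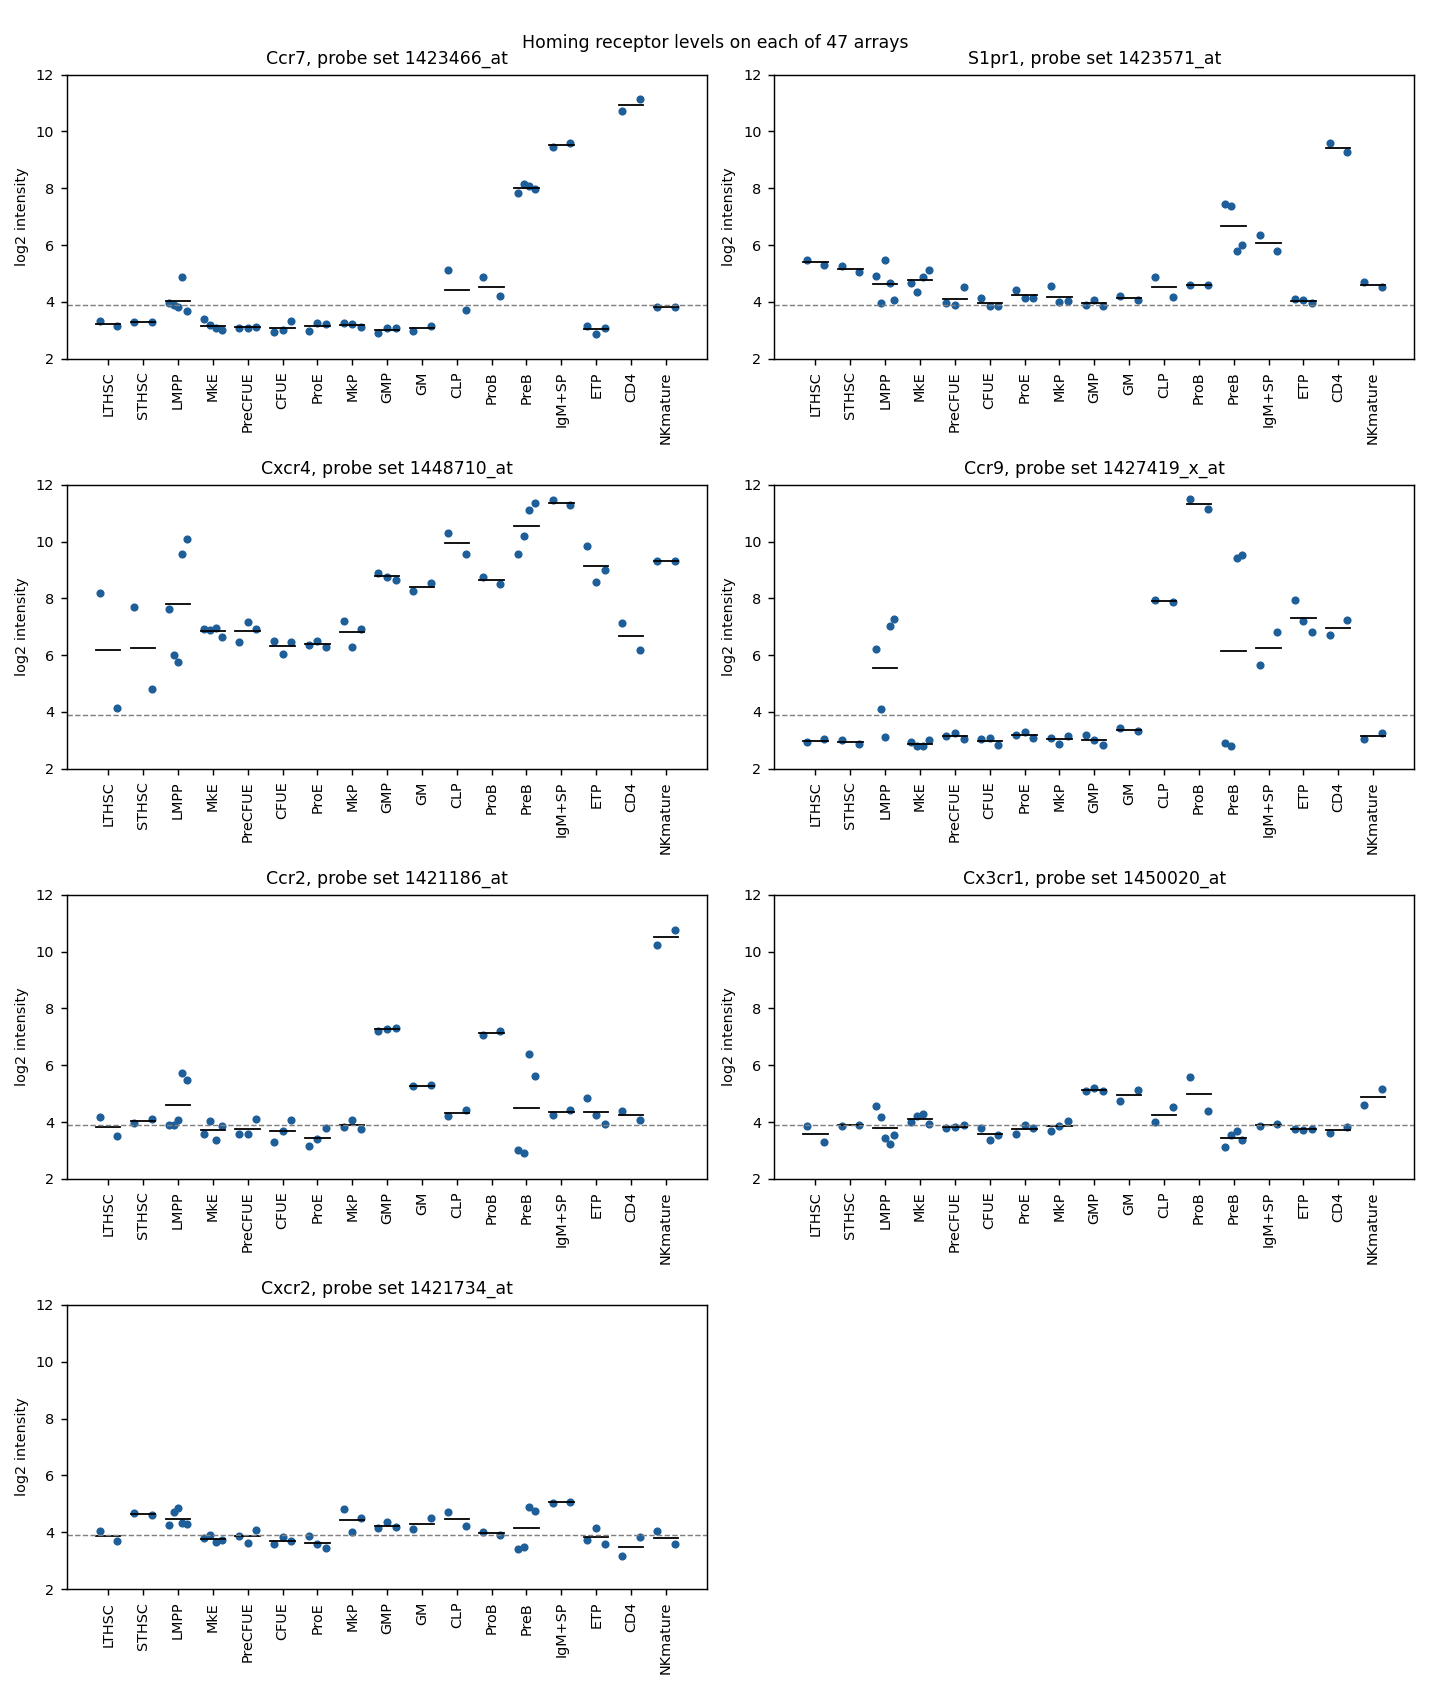
Log2 intensity (vertical axis, same scale in every panel) of 1 probe set for each of the 7 receptors on the 47 arrays, by group (horizontal axis). Points are arrays, black bars group means, and the dashed line the median of all values (3.889). Ccr7 is high on CD4, IgM+SP and PreB, S1pr1 on CD4, and Ccr2 on NKmature. For Ccr9 the PreB arrays fall into separate sets and the LMPP arrays spread from 3.12 to 7.26.

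Ccr7, the receptor for the lymph node chemokines Ccl19 and Ccl21, marked the mature and late B and T cell groups. Its log2 level was 10.72 and 11.13 on the CD4 arrays. It was 9.45 and 9.59 on IgM+SP and 7.84, 8.13, 8.07 and 7.98 on PreB. These 3 groups did not overlap with each other or with any other group, and the 4 PreB arrays lay close together although they were split for other receptors. The next levels were 4.87 and 4.20 on ProB, 5.12 and 3.72 on CLP, and 3.95, 3.90, 3.83, 4.86 and 3.67 on LMPP. NKmature had 3.82 and 3.83. All arrays of the other 10 groups, ETP and GMP among them, lay at or below 3.41, under the filter level. Arrays of neighbouring groups overlapped in 12 of the 16 steps of the order from CD4 to GMP.

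Ccr7 was higher in CD4 than in ETP by 7.90 ± 0.27 (standard error of the limma fit; adjusted p = 1.07e-23), a 239-fold ratio against a group below the filter level. With values under 16 raised to 16 the difference was 6.93. It was lower in NKmature than in CD4 by 7.10 ± 0.29 (adjusted p = 5.04e-21). Along the B cell groups it rose by 3.59 ± 0.25 from CLP to PreB (adjusted p = 2.26e-14) and by 1.51 ± 0.25 from PreB to IgM+SP (adjusted p = 2.60e-05). CD4 lay 1.41 ± 0.29 above IgM+SP (adjusted p = 0.000196). These 5 calls held when any 1 array was left out. The smaller falls were less firm. From CLP to ETP Ccr7 fell by 1.39 ± 0.27 (adjusted p = 4.92e-05), but by only 0.70 (adjusted p = 0.0431) without CLP replicate 1, below the 2-fold limit. From LMPP to GMP it fell by 1.03 ± 0.21 (adjusted p = 0.000191), and by 0.97 without GMP replicate 1, 0.82 without LMPP replicate 4, 0.91 without LMPP replicates 3 to 5 and 0.99 with the class by Xist and Eif2s3y as a block, again below that limit. With a floor of 16 the fall was 0.17 from LMPP to GMP and 0.56 from CLP to ETP.

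S1pr1, the receptor that lymphocytes use to leave tissue, was highest in CD4, at 9.60 and 9.26. On PreB it was 7.45, 7.36, 5.79 and 6.02, and on IgM+SP 6.36 and 5.77. PreB replicates 1 and 2 lay above both IgM+SP arrays, while replicates 3 and 4 lay within their range. The stem cell groups followed, with 5.48 and 5.29 on LTHSC and 5.26 and 5.04 on STHSC, which did not overlap. The LMPP arrays spread from 3.95 to 5.49. GMP, at 3.90, 4.07 and 3.87, and CFUE, from 3.85 to 4.15, had the lowest means and overlapped, and all other arrays of the progenitor groups, ProB and NKmature lay at or below 5.12.

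The difference of S1pr1 between CD4 and ETP was 5.39 ± 0.37 (adjusted p = 5.52e-15), a 41.9-fold ratio. NKmature had 4.69 and 4.52, and S1pr1 was lower there than in CD4 by 4.82 ± 0.40 (adjusted p = 2.39e-12). CD4 lay 3.36 ± 0.40 above IgM+SP (adjusted p = 1.45e-08). S1pr1 rose by 2.13 ± 0.35 from CLP to PreB (adjusted p = 2.91e-06), by 2.88 without PreB replicates 3 and 4 and by 1.38 without replicates 1 and 2. From PreB to IgM+SP the difference was -0.59 ± 0.35 (adjusted p = 0.235) and passed the threshold only without PreB replicates 3 and 4. Ccr7 and S1pr1 were thus both highest in CD4 and far lower in NKmature. IgM+SP lay above PreB for Ccr7, while for S1pr1 the difference between these groups did not pass the test.

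Cxcr4, the receptor for the marrow chemokine Cxcl12, was above the filter level on all 47 arrays. Its log2 level was 11.45 and 11.27 on IgM+SP, 9.57, 10.19, 11.12 and 11.36 on PreB, and 10.29 and 9.58 on CLP. NKmature followed with 9.30 and 9.33, and ETP with 9.84, 8.58 and 8.999. The granulocyte and macrophage groups lay near these, at 8.89, 8.77 and 8.66 on GMP and 8.25 and 8.52 on GM, as were the arrays labelled ProB, at 8.74 and 8.52. MkE, PreCFUE, CFUE, ProE and MkP all lay between 6.04 and 7.19. CD4, with 7.15 and 6.17, fell in that lower range, apart from every other lymphoid group.

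Among the early groups the replicates of Cxcr4 disagreed. LTHSC gave 8.20 and 4.13, STHSC 7.71 and 4.82, and LMPP 7.61, 6.02, 5.76, 9.58 and 10.10. LMPP replicates 4 and 5 were the high ones, above every other array of these 3 groups. On these 2 arrays the mean of 10 immediate early genes (Fos, Jun, Egr1 and others induced within minutes in handled or activated cells) was 4.76 and 4.73, against 10.42, 10.19 and 9.52 on LMPP replicates 1 to 3, and late neutrophil genes were at 8.60 and 8.48 against 3.86 to 4.02. The part of these genes in the Cxcr4 levels was not tested. Immediate early genes were at 10.81 and 9.94 on LTHSC and 10.04 and 10.50 on STHSC, where Cxcr4 split without a like split of that list. The 4 measured erythroid genes were lower on the Cxcr4-high array of both groups, at 7.11 against 9.40 on LTHSC and 5.65 against 7.08 on STHSC. So were 5 stem cell genes, at 8.95 against 9.47 and 6.76 against 7.47. Several other lists were higher on it, among them 6 monocyte and macrophage genes, at 5.28 against 4.74 and 5.96 against 5.72. The part of these lists in the split was not tested. In all but 1 of the 16 steps of the Cxcr4 order the arrays of neighbouring groups overlapped.

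The largest called difference of Cxcr4 was between the 2 mature B and T cell groups: CD4 lay 4.70 ± 0.96 below IgM+SP (adjusted p = 0.000155), a 26.0-fold ratio, and this call held without any 1 array. With the class by Xist and Eif2s3y as a block it was -3.34 (adjusted p = 0.0754), and the late neutrophil genes were at 3.85 and 4.43 on CD4 against 11.04 and 10.34 on IgM+SP, a part that was not tested. CD4 shares no class with IgM+SP, ETP or NKmature. The class block values of these comparisons rest on class differences within PreB, LMPP and ETP and are not corrected effects. Cxcr4 was lower in CD4 than in ETP by 2.48 ± 0.87 (adjusted p = 0.0223). That call ended without CD4 replicate 2 (-1.99, adjusted p = 0.196), without ETP replicate 1 (-2.13, adjusted p = 0.0866) and with the class block (-0.66, adjusted p = 0.798). ETP replicate 1, the highest for Cxcr4, was of another class than replicates 2 and 3. Its immediate early genes were at 5.96, against 8.85 and 9.28 on those arrays, and their part was not tested. Cxcr4 was higher in NKmature than in CD4 by 2.65 ± 0.96 (adjusted p = 0.0341), which no longer passed when either array of either group was left out (2.17 to 3.14), with the class block (0.61, adjusted p = 0.813), with a floor of 16 (adjusted p = 0.0571) or with a trended robust spread (adjusted p = 0.0536). From LMPP to CLP it rose by 2.12 ± 0.80 (adjusted p = 0.0319). Without LMPP replicates 1 to 3 that difference was 0.10 (adjusted p = 0.934) and without replicates 4 and 5 it was 3.47 (adjusted p = 0.000122). It also missed the threshold in a fit of these 2 groups alone (adjusted p = 0.160) and without CLP replicate 1 (1.76), CLP replicate 2 (2.48), LMPP replicate 2 (1.67) or LMPP replicate 3 (1.61).

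Ccr9, the receptor for the thymic and intestinal chemokine Ccl25, reached its highest levels on the arrays labelled ProB, at 11.49 and 11.14 on its brightest probe set (1427419_x_at). The lymphoid progenitor groups came next, with 7.93 and 7.88 on CLP and 7.96, 7.19 and 6.82 on ETP. CD4 had 6.70 and 7.22 and IgM+SP 5.67 and 6.83. LTHSC, STHSC, MkE, PreCFUE, CFUE, ProE, MkP, GMP, GM and NKmature (3.05 and 3.26) all stayed at or below 3.43. On this probe set Ccr9 was thus read above the filter level only in LMPP and in lymphoid groups other than NKmature. The other probe sets did not show the levels of CLP, ETP, CD4, IgM+SP and LMPP. On 1421920_a_at their means were 3.22, 3.37, 3.52, 3.26 and 3.66, and on 1421919_a_at 3.38, 3.24, 3.06, 3.08 and 3.22, all below the filter level.

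PreB and LMPP were not uniform for Ccr9. On 1427419_x_at the PreB arrays gave 2.92 and 2.79 for replicates 1 and 2 but 9.42 and 9.52 for replicates 3 and 4. The lower arrays lay among the lowest of all groups and the higher ones above every array but those labelled ProB. On the second probe set, 1421920_a_at, replicates 3 and 4 again stood higher, at 5.02 and 5.58. The 3 plasmacytoid dendritic cell genes were at 4.98 and 5.37 on PreB replicates 3 and 4 and at 4.60 and 4.68 on replicates 1 and 2, and both ProB arrays were at 10.35 and 10.81. The LMPP arrays ran on 1427419_x_at from 3.12 (replicate 3) over 4.10 and 6.23 to 7.04 and 7.26 (replicates 4 and 5). The part of the marker genes in these levels was not tested.

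**Figure D2:**
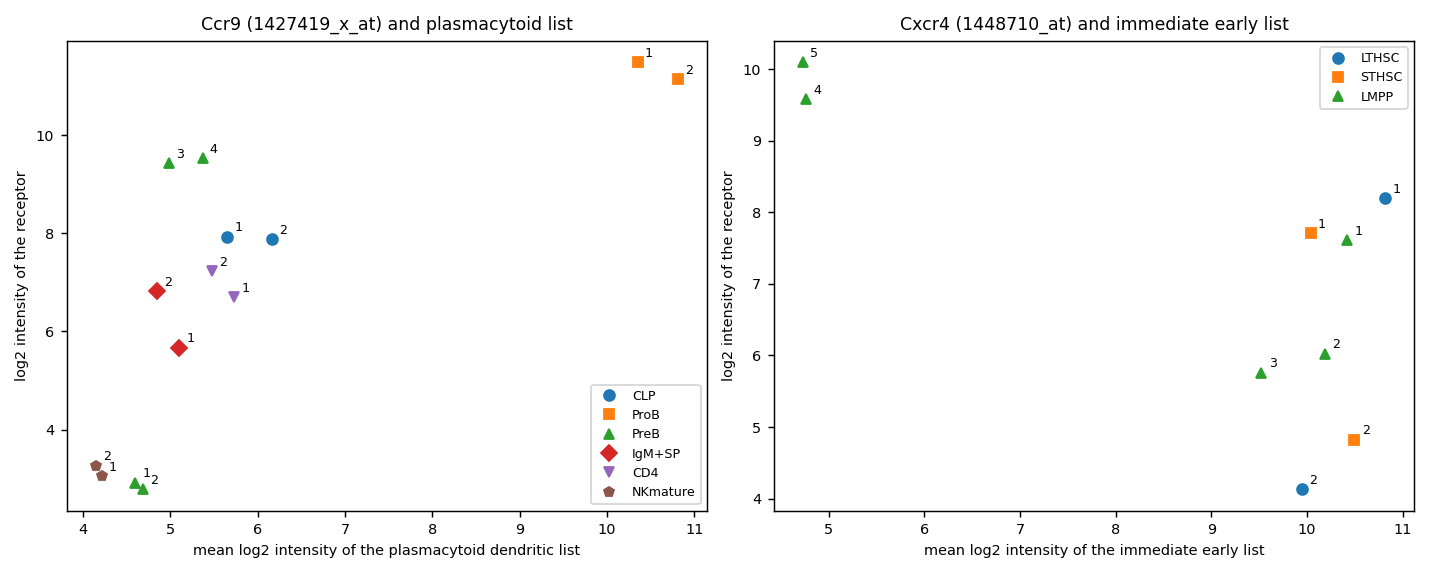
Left: log2 intensity of Ccr9 (vertical axis) against the mean log2 intensity of 3 plasmacytoid dendritic cell genes on the arrays of 6 lymphoid groups. Right: log2 intensity of Cxcr4 against the mean of 10 immediate early genes on LTHSC, STHSC and LMPP arrays. Points are arrays with their replicate numbers. Both ProB arrays sit at the upper right for Ccr9, PreB replicates 3 and 4 are high for Ccr9 at list means of 4.98 and 5.37, and LMPP replicates 4 and 5 are high for Cxcr4 at list means of 4.76 and 4.73.

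Ccr9 was higher on ProB than on CLP by 3.41 ± 1.28 (adjusted p = 0.0291). That call ended when either array of either group was left out (3.24 to 3.58, adjusted p from 0.0819 to 0.105) and after a further quantile normalization (2.77, adjusted p = 0.0745). The standard error holds the spread within all groups, the split PreB arrays included. On 1421920_a_at the ProB arrays stood at 8.41 and 9.58 and the difference was 5.77 ± 0.53 (adjusted p = 6.91e-11), and on 1421919_a_at they stood at 6.40 and 7.46 with a difference of 3.55 ± 0.29 (adjusted p = 4.26e-12). No other array passed 3.84 on 1421919_a_at. On 1436065_at the ProB arrays had 4.68 and 4.34, and 1442758_at never exceeded 3.62. Over the 17 group means, which share all their arrays, these 4 probe sets correlated with the brightest at 0.70 to 0.79. By the brightest probe set of Ccr9, NKmature lay below CLP by 4.75 ± 1.28 (adjusted p = 0.00184). No other tested Ccr9 probe set was called in that comparison. The NKmature and CLP means were 3.11 and 3.22 on 1421920_a_at, and 3.21 and 3.38 on 1421919_a_at. By the brightest probe set NKmature lay below CD4 by 3.80 ± 1.28 (adjusted p = 0.0227), which no longer passed without any 1 of the 4 arrays (-4.06 to -3.54, adjusted p from 0.0625 to 0.121), with a floor of 16 (-2.96) or with the mean of the probe sets (-0.85). From LMPP to GMP Ccr9 fell by 2.54 ± 0.93 (adjusted p = 0.0301) on the brightest probe set, the only tested Ccr9 probe set called there. This call was lost without LMPP replicate 1, 4 or 5 or any 1 GMP array (-2.63 to -2.12, adjusted p from 0.0587 to 0.0829), without LMPP replicates 4 and 5 together (-1.48, adjusted p = 0.259), without LMPP replicates 3 to 5 (-2.16, adjusted p = 0.130) and with the replicate block (-1.52, adjusted p = 0.186). A floor of 16 (-1.73), the mean of the probe sets (-0.86) and a trended robust spread (adjusted p = 0.0502) ended it too. The differences from LTHSC to LMPP (2.56 ± 1.07, adjusted p = 0.0838) and from LMPP to CLP (2.35 ± 1.07, adjusted p = 0.0749) did not pass.

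**Figure D3:**
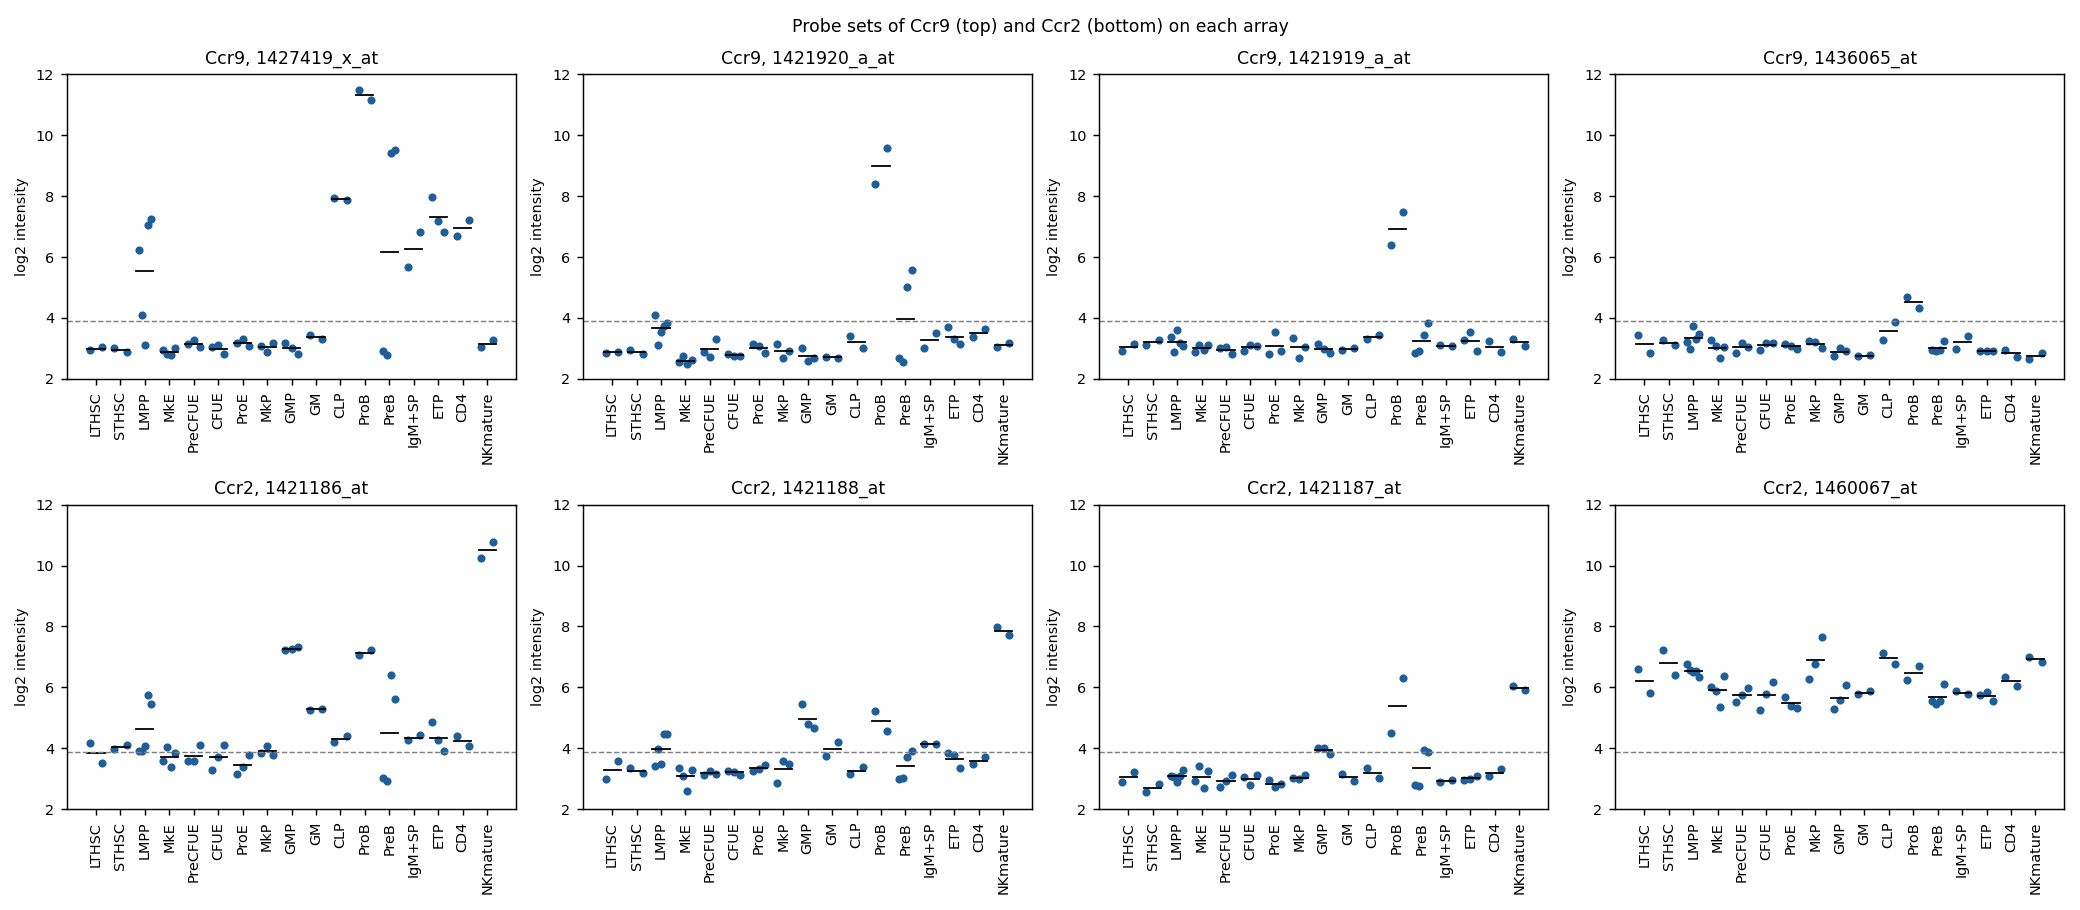
Log2 intensity (vertical axis) of 4 probe sets each of Ccr9 (top) and Ccr2 (bottom) on the 47 arrays by group. Points are arrays, black bars group means, and the dashed line the median of all values (3.889). All 4 Ccr9 probe sets are highest on ProB. Probe sets 1421186_at, 1421188_at and 1421187_at of Ccr2 are highest on NKmature, while 1460067_at is nearly level across groups.

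Ccr2, the receptor for the monocyte chemokine Ccl2, gave 2 different patterns. The brightest probe set, 1460067_at, stayed between 5.24 and 7.66 on all arrays, and its group means spanned 2.78-fold. The other 3 probe sets correlated with each other at 0.88 to 0.97 over the 17 group means and with 1460067_at at only 0.30 to 0.35. The most variable of them, 1421186_at, is used for Ccr2 below, a choice made after its values were seen.

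On 1421186_at Ccr2 was 10.25 and 10.76 on NKmature, 7.22, 7.26 and 7.33 on GMP, and 7.07 and 7.21 on ProB. GM had 5.26 and 5.30. These groups did not overlap with one another, but the highest ProB array (7.214) lay just under the lowest GMP array (7.223). On 1421188_at GMP and ProB overlapped. LMPP gave 3.89, 3.91, 4.08, 5.74 and 5.47 and PreB 3.03, 2.92, 6.40 and 5.63, so LMPP replicates 4 and 5 and PreB replicates 3 and 4 again stood above their own groups. All other arrays lay at or below 4.86.

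Ccr2 was higher in NKmature than in CD4 by 6.26 ± 0.65 (adjusted p = 7.56e-10), a 76.8-fold ratio, and higher than in CLP by 6.20 ± 0.65 (adjusted p = 6.83e-10). The late neutrophil genes were at 10.76 and 10.86 on NKmature and at 11.04 and 10.34 on IgM+SP, where Ccr2 was 4.25 and 4.44, and their part in the Ccr2 levels was not tested. Ccr2 was higher on ProB than on CLP by 2.83 ± 0.65 (adjusted p = 0.000581). The NK genes were at 9.02 on both ProB arrays. The plasmacytoid dendritic cell genes were at 10.35 and 10.81 there, against 5.65 and 6.16 on CLP. The 6 monocyte and macrophage genes were at 7.12 and 6.51, against 5.99 and 5.59 on CLP. The part of these lists in the Ccr2 difference was not tested. Ccr2 rose from LMPP to GMP by 2.65 ± 0.48 (adjusted p = 2.92e-05), by 1.66 (adjusted p = 0.0210) without LMPP replicates 1 to 3. From GMP to GM it fell by 1.99 ± 0.60 (adjusted p = 0.0209). Leaving out GM replicate 1 (adjusted p = 0.138), GM replicate 2 (adjusted p = 0.136), GMP replicate 2 (adjusted p = 0.0509) or GMP replicate 3 (adjusted p = 0.0529) ended that call, and the class block turned it to 1.04 (adjusted p = 0.189). GM and GMP share no class, so the block value rests on class differences within other groups.

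On 1460067_at the called differences were other ones and small. MkP, with 6.27, 6.78 and 7.66, lay 1.01 ± 0.26 above MkE, with 6.01, 5.88, 5.34 and 6.37 (adjusted p = 0.00357). The 2 groups overlapped, and the call ended without MkE replicate 2 (1.00, just under 2-fold), MkE replicate 3 (0.82) or MkP replicate 3 (0.63). ETP lay 1.24 ± 0.31 and PreB 1.28 ± 0.30 below CLP, with 5.76, 5.83 and 5.54 on ETP, 5.56, 5.45, 5.57 and 6.12 on PreB, and 7.12 and 6.78 on CLP (adjusted p = 0.00132 and 0.000411). On 1421186_at the direction turned, with ETP 0.04 and PreB 0.19 above CLP.

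Cx3cr1, the receptor for the membrane-bound chemokine fractalkine on monocytes and NK cells, was dim throughout on its tested probe set (1450020_at). It was 5.11, 5.21 and 5.11 on GMP, 4.75 and 5.15 on GM, 5.57 and 4.39 on ProB, and 4.61 and 5.15 on NKmature. No array of any other group passed 4.58. From LMPP, with 4.58, 4.19, 3.44, 3.24 and 3.55, to GMP it rose by 1.34 ± 0.23 (adjusted p = 1.13e-05), but by 0.76 (adjusted p = 0.0131), under 2-fold, without LMPP replicates 3 to 5, the LMPP arrays of another class than GMP. It was also under 2-fold with the class block (0.96), a floor of 16 (0.99) and the mean of both probe sets (0.72). NKmature lay 1.15 ± 0.31 above CD4 (3.63 and 3.83; adjusted p = 0.00439), and 0.88 (adjusted p = 0.105) without NKmature replicate 2, 0.88 with a floor of 16 and 0.43 with the mean of both probe sets. By 1421186_at for Ccr2 and 1450020_at for Cx3cr1, NKmature, GMP, ProB and GM thus had the 4 highest means, in another order. On the other Ccr2 probe sets GM was not among the 4 highest. Its mean was 3.04 on 1421187_at, 3.97 on 1421188_at and 5.83 on 1460067_at. Means of 3.35 (PreB), 4.14 (IgM+SP) and 6.81 (STHSC) lay at rank 4 there. NKmature, GMP and ProB stayed highest on 1421187_at and 1421188_at. On 1450019_at of Cx3cr1 the highest mean was 3.30 (CLP), under the filter level.

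Cxcr2, the receptor for the neutrophil chemokines Cxcl1 and Cxcl2, spanned 2.96-fold between its group means. IgM+SP had 5.03 and 5.07, above every other array, and STHSC had the next mean, with 4.66 and 4.60. PreB replicates 3 and 4 had 4.89 and 4.76, while replicates 1 and 2 had 3.43 and 3.49. LMPP replicate 3 (4.84) and MkP replicate 1 (4.81) lay between those higher PreB arrays. The granulocyte and macrophage groups were unremarkable, at 4.16, 4.38 and 4.17 on GMP and 4.11 and 4.49 on GM. CD4, with 3.16 and 3.82, had the lowest mean and lay 1.56 ± 0.34 below IgM+SP (adjusted p = 0.000299), or 0.19 below it (adjusted p = 0.807) with the class block. CD4 and IgM+SP share no class, so the block value rests on class differences within other groups. The late neutrophil genes were high on the same IgM+SP and PreB arrays, but also on NKmature, where Cxcr2 was 4.04 and 3.58. They were at 7.68 on MkP replicate 1, 3.86 on LMPP replicate 3, and 4.17 and 3.81 on STHSC. Their part in the Cxcr2 levels was not tested.

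Comparison by comparison, a gene was called at an adjusted p under 0.05 and at least a 2-fold difference, with its brightest probe set. The comparisons share groups, so they are not independent. NKmature minus CD4 called 5 of the 7 receptors (20.4% of all genes tested): Ccr7, S1pr1 and Ccr9 were lower and Cxcr4 and Cx3cr1 higher in NKmature. Only 2 or 3 of these were called when 1 array was left out, Ccr7 and S1pr1 each time. CD4 minus IgM+SP called 4 (26.6%), with Ccr7 and S1pr1 higher and Cxcr4 and Cxcr2 lower in CD4, and CD4 minus ETP called 3 (26.5%), with Ccr7 and S1pr1 higher and Cxcr4 lower. PreB minus CLP called 3 (35.5%), Ccr7 and S1pr1 higher and Ccr2 lower, and GMP minus LMPP 3 (16.8%), Cx3cr1 higher and Ccr7 and Ccr9 lower. Without LMPP replicates 3 to 5 none of those 3 was called in GMP minus LMPP and 2 others were, Cxcr4 and Ccr2. ETP minus CLP called 2 (29.2%), both lower. A single receptor was called in IgM+SP minus PreB (Ccr7; 12.8%), ProB minus CLP (Ccr9; 29.5%), NKmature minus CLP (Ccr9; 41.3%), CLP minus LMPP (Cxcr4; 21.2%) and MkP minus MkE (Ccr2; 11.5%). A count of 1 of 7 lies near most of these backgrounds and says nothing of receptors in particular.

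In the limma fit with no block, no receptor was called among the stem cell and erythroid steps. STHSC minus LTHSC called 0 (6.81% of all genes) with 1 at an unadjusted p under 0.05, MkE minus LTHSC 0 (19.3%) with 0, and ProE minus MkE 0 (20.5%) with 0. LMPP minus LTHSC called 0 (12.5%) with 5 at an unadjusted p under 0.05. Ccr7 was 0.81 ± 0.24 higher in LMPP there (adjusted p = 0.0138), below the 2-fold limit. Without LMPP replicates 1 to 3 the count was 4 (Cxcr4, Ccr7, Ccr9 and S1pr1), and without LMPP replicate 2 or 3 it was 2 (Cxcr4 and Ccr9). With the class block 3 receptors were called in MkE minus LTHSC (Ccr9, Cxcr2 and S1pr1), 2 in ProE minus MkE (Ccr9 and Cxcr2), 1 in LMPP minus LTHSC (Ccr9) and 3 in GM minus GMP (Ccr9, Cxcr2 and S1pr1). Except for LMPP minus LTHSC, these compared groups share no class. Their calls rest on class differences carried over from PreB, LMPP and ETP, and cannot be read as receptor differences. The Ccr9 means were 2.89 on MkE, 2.99 on LTHSC, 3.19 on ProE, 3.37 on GM and 3.01 on GMP, all under the filter level. Without LTHSC replicate 1, Cxcr4 alone was called in LMPP minus LTHSC and in MkE minus LTHSC. GM minus GMP called 0 (7.95%) with 0 at an unadjusted p under 0.05 by the brightest probe sets, and 1 (Ccr2; 9.29% of all genes) by the most variable ones. The most variable probe sets raised the counts, each time by Ccr2, to 6 in NKmature minus CD4 (23.2% of all genes), 4 in GMP minus LMPP (19.1%), 2 in ProB minus CLP (32.7%) and 2 in NKmature minus CLP (45.4%).

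**Figure D4:**
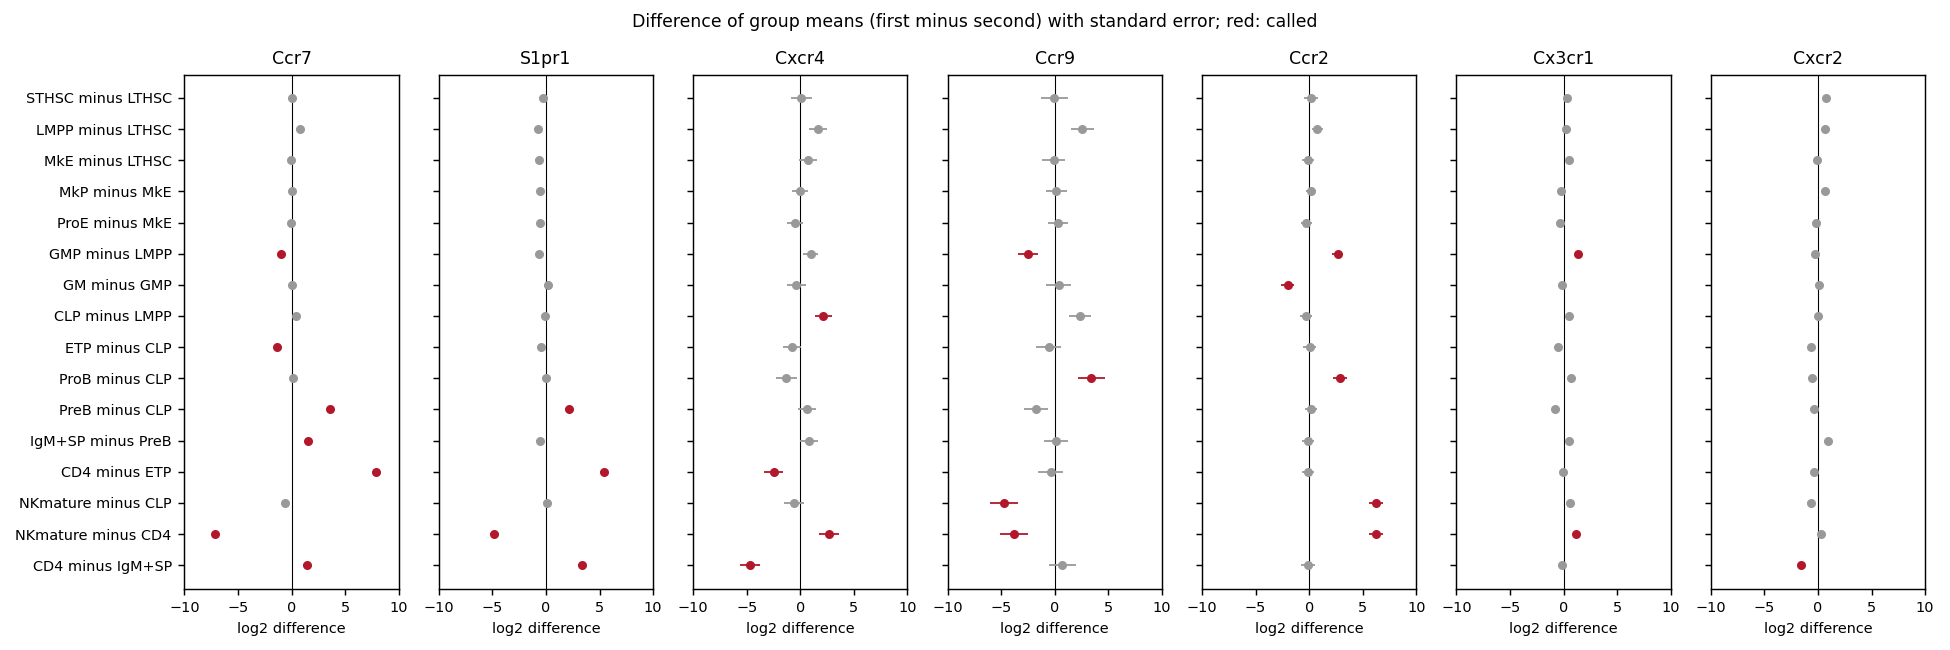
Differences of group means in log2 intensity (horizontal axis, first group minus second) with standard errors from the limma fit, for the 7 receptors in 16 comparisons (vertical axis). Red points were called, and Ccr2 is shown by probe set 1421186_at. Ccr7 ranges from -7.10 in NKmature minus CD4 to 7.90 in CD4 minus ETP, and STHSC minus LTHSC, LMPP minus LTHSC, MkE minus LTHSC and ProE minus MkE hold no called receptor in this fit, which has no block.

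Other genes of the same pathways were read from 5 lists. Of the 17 other chemokine receptors, 12 were tested. In CD4 minus ETP 4 of them were higher and 0 lower (26.5% of all genes tested were called), among them Cxcr3 (5.61 ± 0.23), which guides effector T cells, Cxcr5 (5.40 ± 0.45), which guides cells to B cell follicles, and Cxcr6 (4.75 ± 0.16). Their median difference was 0.09, beside 0.00 for all genes. In NKmature minus CD4 (20.4% of all genes) 1 was higher and 3 were lower, with Cxcr5 at -5.56 ± 0.49, Cxcr6 at -3.87 ± 0.18 and Ccr6 at -3.56 ± 0.40. In IgM+SP minus PreB (12.8% of all genes) 3 were higher and 0 lower: Cxcr5 (3.04 ± 0.43), Ccr6 (2.42 ± 0.35) and the Cxcl12 scavenger Ackr3 (2.23 ± 0.23). Cxcr3 had group means of 9.57 in CD4, 9.81 in NKmature and 9.71 on ProB and of at most 4.07 elsewhere.

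Of 13 genes of sphingosine 1-phosphate signalling other than S1pr1, 12 were tested. In PreB minus CLP 5 were higher and 2 lower, where 35.5% of all genes were called. Klf2, a transcription factor known to drive S1pr1, was 5.16 ± 0.84 higher, and Cd69, which removes S1pr1 from the cell surface, was 3.74 ± 0.67 higher. The immediate early genes were at 6.38 and 6.62 on CLP and from 8.39 to 9.10 on PreB, and their part in these differences was not tested. In CD4 minus ETP (26.5% of all genes) 4 were higher and 2 lower, the latter being the exporter Spns2 (-5.43 ± 0.35) and the receptor S1pr3 (-4.72 ± 0.35). In NKmature minus CLP (41.3% of all genes) 5 were higher and 2 lower, with S1pr5, the receptor NK cells use to leave the marrow, at 5.62 ± 0.39. In NKmature minus CD4, where S1pr1 was lower, S1pr5 was higher by 4.97 ± 0.39. Klf2 had a group mean of 10.55 in PreB, 10.30 on ProB, 10.28 in CD4, 9.31 in NKmature and 8.29 in LTHSC. The mean of S1pr1 was 4.61 in NKmature and 4.58 on ProB.

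Of 16 adhesion genes 14 were tested, and 8 were higher and 1 lower in CD4 minus IgM+SP (26.6% of all genes), with Itgb7 (5.09 ± 0.33), the integrin subunit for gut homing, and Itgb2 (3.43 ± 0.31) among them; the median was 1.75, beside 0.00 for all genes. In ETP minus CLP (29.2% of all genes) 4 of the 14 were higher and 0 lower, a share near that of all genes. Among them were Itga6 (2.39 ± 0.23), Itgb7 (2.30 ± 0.30) and Itgb1 (1.95 ± 0.54). The median of the list was 0.06, beside 0.09 for all genes. Of 13 ligands only 7 were tested, and Cxcl1 was called most often, in 5 of the 16 comparisons. Of 31 genes of signalling behind the receptors 29 were tested, 11 higher and 5 lower in CD4 minus ETP (26.5% of all genes) and 14 higher and 4 lower in NKmature minus CLP (41.3%, the highest share of the 16 comparisons by brightest probe set). Rgs10, a brake on G protein signalling, was called in 11 of the 16 comparisons, and Dock8 and Rac2, which act on the actin skeleton, in 9 each.

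The genes whose 17 group means were most like those of a member were listed, with Pearson's r as a description over means that share all arrays. For Ccr7 they were Cxcr5 (0.97), Lef1 (0.95) and Tlr1 (0.94), and for S1pr1 Fam169b (0.94), Sit1 (0.94) and Asb2 (0.91). For Ccr2 on 1421186_at they were Aoah (0.96), Fcgr3 (0.95) and Pglyrp1 (0.92), and on 1460067_at Plekhh3 (0.93), Smtn (0.89) and Slc25a23 (0.86). No tested gene passed 0.9 for the other members. Cxcr4 was nearest to Mef2d (0.89), Pik3ap1 (0.88) and Tram2 (0.87), and Ccr9 to Sh3pxd2a (0.86), P2ry13 (0.85) and Uvrag (0.85). Cx3cr1 was nearest to Rab3d (0.83), Klrb1f (0.81) and Fcer1g (0.80), and Cxcr2 to Ryr3 (0.82), Snai1 (0.81) and Msr1 (0.79).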

How the data were processed

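RNA of 2000 purified cells per array was amplified in 2 rounds and hybridized to Affymetrix arrays, and the authors calculated probe set values with RMA, per the series design text. What they deposited is a linear intensity for each probe set on each array. How arrays were scaled to each other is not given in the sources used here. Values are relative within an array, no depth applies, and precision rests on the number of arrays.

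Log2 was taken with no pseudocount. Of 45101 probe sets, 34958 had 1 symbol in the platform annotation, 932 had several and 9211 were absent from it. A gene with several probe sets (9012 of 18194) was read by the one with the highest mean. Of the genes, 13949 exceeded 3.889 (the median log2 value of the table) in the mean of some group and were tested. With limma 3.58.1 (R 4.3.3), 1 mean per group was fitted over 47 arrays, leaving 30 residual degrees of freedom, and contrasts were tested two-sided with Benjamini-Hochberg adjustment over all genes of a comparison. Each probe set was also tested in a fit of 30466 probe sets. Calls need an adjusted p under 0.05 and at least 2-fold. The fit was tested on simulated data.

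The members, the gene lists and the comparisons were chosen with earlier results of these data known, so the tests are not independent support. Named genes are the members, the 3 genes with the highest correlation over group means, called genes of the pathway lists (at most 6 a comparison, by size) and the ligands and signalling genes called most often. Which of these to print was decided after their values were seen. Alternatives were the mean of a gene's probe sets, a stricter filter (5.968) or none, quantile normalization, centring, a floor of 16, a trended robust spread, the replicate number or the class by Xist (over 7) and Eif2s3y (over 5) as a block, fits of only 2 groups, and 1 array left out at a time. The most variable probe set, the immediate early genes and leaving out sets of LMPP, PreB, ETP or ProB arrays were chosen after seeing the data. Same-numbered arrays of different groups did not deviate together (median correlation 0.0058 over 311 pairs, 17.0% over 0.1, against -0.0004 over 722 pairs with different numbers, 15.5% over 0.1), so numbers do not pair the arrays.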

Additional observations from a re-analysis of the deposited data

Results flagged for a closer look

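Within groups of 4 or 5 arrays, 45 sets of values of the 15 probe sets were examined for an array far from the rest, and 3 were found; chance gives about 1 in 20. Ccr7 was 4.86 on LMPP replicate 4 against 3.67 to 3.95 on the other LMPP arrays. On Ccr9 probe set 1436065_at, PreB replicate 4 had 3.23 against 2.91 to 2.96 on the other PreB arrays. On Ccr9 probe set 1442758_at, MkE replicate 1 had 2.74 against 2.78 on the other MkE arrays, a difference of no size near the lowest values of the array. The 2 against 2 split of the PreB arrays cannot be found this way, because no single array stands apart.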

How the results depend on the processing

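The counts of called receptors kept within 1.5 times of their values with no filter, the stricter filter, a trended robust spread, without both ProB arrays, without ETP replicates 2 and 3 and without LMPP replicates 3 to 5, and the count differing among groups was 7 under every alternative run. A count does not say which receptors: without LMPP replicates 3 to 5 the 2 called in GMP minus LMPP were Cxcr4 (higher) and Ccr2 (lower, by 1460067_at), and Ccr7 (-0.91), Ccr9 (-2.16, adjusted p = 0.130) and Cx3cr1 (0.76) were lost. With the mean of probe sets, 0 receptors were called in MkP minus MkE, 1 in GMP minus LMPP, 1 in ETP minus CLP, 2 in ProB minus CLP and 2 in NKmature minus CLP. The most variable probe set gave 0 in MkP minus MkE, 1 in GM minus GMP, 1 in ETP minus CLP and 2 each in ProB minus CLP and NKmature minus CLP, and turned the Ccr2 differences in ETP minus CLP (0.040) and PreB minus CLP (0.187). Quantile normalization gave 2 in CLP minus LMPP, and centring 0 in MkP minus MkE. Quantile normalization moved the median of all genes from 0.17 to -0.07 in NKmature minus CLP, from 0.09 to -0.08 in ETP minus CLP, from 0.08 to -0.06 in ProB minus CLP, from 0.06 to -0.08 in PreB minus CLP and from -0.08 to 0.05 in MkP minus MkE. A floor of 16 gave 0 in GMP minus LMPP, 1 in ETP minus CLP and 2 in NKmature minus CD4, since dim values are raised. The replicate block gave 2 in CLP minus LMPP and 2 in IgM+SP minus PreB, and of the single differences ended that of Ccr9 in GMP minus LMPP. The class block gave 1 in LMPP minus LTHSC, 3 in MkE minus LTHSC, 2 in ProE minus MkE, 1 in GMP minus LMPP, 3 in GM minus GMP and 2 each in CLP minus LMPP, ProB minus CLP, IgM+SP minus PreB and NKmature minus CLP, and turned Ccr2 (1421186_at) in GM minus GMP to 1.04. The compared groups share no class in MkE minus LTHSC, ProE minus MkE, GM minus GMP, ProB minus CLP and NKmature minus CLP. There the block rests on class differences within PreB, LMPP and ETP and does not part group from class. The compared groups alone gave 0 in CLP minus LMPP and 2 in ProB minus CLP. Without PreB replicates 3 and 4 there were 5 in PreB minus CLP and 4 in IgM+SP minus PreB, and without replicates 1 and 2 there were 2 in IgM+SP minus PreB. Without LMPP replicates 4 and 5 there were 2 in CLP minus LMPP, and without replicates 1 to 3 there were 4 in LMPP minus LTHSC and 0 in CLP minus LMPP. Leaving out 1 array at a time gave 2 to 3 in NKmature minus CD4, 0 to 2 in CLP minus LMPP and in LMPP minus LTHSC, 0 to 1 in ProB minus CLP, MkP minus MkE and MkE minus LTHSC, 1 to 3 in GMP minus LMPP, 1 to 2 in ETP minus CLP, NKmature minus CLP and IgM+SP minus PreB, 2 to 3 in CD4 minus ETP and 3 to 4 in PreB minus CLP, and 4, 0, 0 and 0 throughout in CD4 minus IgM+SP, STHSC minus LTHSC, ProE minus MkE and GM minus GMP. Except where construction shows it, the cause was not tested. Cx3cr1 did not exceed 5.57 and Cxcr2 5.07 on any array, so their differences, and ratios against the low groups of Ccr7 and Ccr9, rest on dim values.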
